A study of Mus musculus with 13 samples.

Results

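The genes described here encode enzymes that write or remove methyl and acetyl groups on histones, or methyl groups on DNA. They were taken by name, as every gene whose symbol begins with Kdm, Kmt, Hdac, Sirt, Kat, Setd, Prmt, Dnmt, Tet or Ezh followed by a digit, with the accessible regions (peaks) lying within 50 kb of the gene's nearest transcription start site. The rule gave 72 genes of 13874 with such a peak, and 196 peaks of the 38620 in the table. All 72 loci and 192 of the 196 peaks had enough counts to be tested. The other 4 peaks, 1 each of Hdac2, Kdm4b, Kdm6a and Tet2, fell under the minimum count. The rule used no measured value.

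ATAC-seq, which marks open chromatin by where a transposase can cut, was run on microglia, the resident macrophages of the brain. The cells came from male C57BL/6J mice and were sorted as CD11b high, CD45 intermediate, Ly6c negative. All mice received an intraperitoneal injection at 10 weeks of age, then 5 days of gavage starting a week later, then another injection 5 weeks after the first, and were 15 weeks old when collected 3 hours after it. Lipopolysaccharide (LPS), the bacterial product sensed by Toll-like receptors, was injected at 1 mg/kg. BLZ945, an inhibitor of the CSF1 receptor on which microglia depend, was gavaged at 169 mg/kg per day and depletes microglia, after which the brain is repopulated. PP mice received PBS, vehicle and PBS. PBP mice received PBS, BLZ945 and PBS. PL mice received PBS, vehicle and LPS, and PBL mice PBS, BLZ945 and LPS. LL mice received LPS, vehicle and LPS, and LBL mice LPS, BLZ945 and LPS. Each library pooled 2 mice with 40000 cells from each. There were 13 libraries, 3 for PBL and 2 for each of the other 5 groups, and p-values measure the spread between pools. The names of the pools PBL 3_4 and PBL 4_5 share the animal number 4.

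Histone acetyltransferases (Kat) loosen chromatin by acetylating lysines, and the zinc-dependent (Hdac) and NAD-dependent (Sirt) deacetylases reverse this. Lysine methyltransferases (Kmt, Setd, Ezh) and arginine methyltransferases (Prmt) add methyl groups that mark active or silent chromatin, and lysine demethylases (Kdm) take them off. Dnmt enzymes methylate cytosine in CG dinucleotides, and Tet enzymes oxidise that methyl group. In macrophages such enzymes are known to set how strongly inflammatory genes respond to LPS, and several are themselves LPS-responsive genes.

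Most of these genes start in CG-rich promoters. A RefSeq window from 250 bases before to 50 bases after the start site (GRCm38.p6, the same assembly as the GRCm38 coordinates of the peaks) was found for 61 of the 72 genes. The median ratio of observed to expected CG dinucleotides was 0.792 in these 61 windows, against 0.389 in all 27025 windows of the table. The ratio was above 0.6 in 53 of the 61 (86.9%), against 36.4% of all. Among windows wholly inside a deposited peak, the median was 0.825 for the 39 of these genes and 0.832 for all 6843, so open promoters in general are as rich in CG. The 5 windows below are printed because each lies wholly inside a promoter peak that passed the test in at least 1 comparison with LPS. Each is written 5′ to 3′ on the gene's strand, with every CG dinucleotide in capitals.
Sirt1: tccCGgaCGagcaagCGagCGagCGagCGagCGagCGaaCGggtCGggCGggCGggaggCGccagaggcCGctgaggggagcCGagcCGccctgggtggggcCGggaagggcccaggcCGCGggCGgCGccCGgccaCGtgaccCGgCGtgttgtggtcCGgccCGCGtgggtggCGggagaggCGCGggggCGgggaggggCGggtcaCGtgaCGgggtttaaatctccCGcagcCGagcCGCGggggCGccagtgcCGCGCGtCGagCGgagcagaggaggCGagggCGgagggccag
Kdm2b: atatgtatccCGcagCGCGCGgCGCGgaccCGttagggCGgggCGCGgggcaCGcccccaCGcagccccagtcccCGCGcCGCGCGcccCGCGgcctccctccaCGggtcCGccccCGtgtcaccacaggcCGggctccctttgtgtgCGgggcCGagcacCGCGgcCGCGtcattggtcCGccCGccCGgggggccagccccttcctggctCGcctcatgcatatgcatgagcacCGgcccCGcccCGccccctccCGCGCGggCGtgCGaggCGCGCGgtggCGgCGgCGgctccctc
Kmt2c: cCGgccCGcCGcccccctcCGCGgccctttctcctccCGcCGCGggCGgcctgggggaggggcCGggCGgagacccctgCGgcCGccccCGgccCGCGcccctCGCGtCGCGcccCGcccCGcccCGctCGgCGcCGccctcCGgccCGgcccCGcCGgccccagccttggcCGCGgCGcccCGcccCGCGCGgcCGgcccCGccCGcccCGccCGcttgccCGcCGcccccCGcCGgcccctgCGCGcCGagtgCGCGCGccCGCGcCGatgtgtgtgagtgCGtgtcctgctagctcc
Kmt5c: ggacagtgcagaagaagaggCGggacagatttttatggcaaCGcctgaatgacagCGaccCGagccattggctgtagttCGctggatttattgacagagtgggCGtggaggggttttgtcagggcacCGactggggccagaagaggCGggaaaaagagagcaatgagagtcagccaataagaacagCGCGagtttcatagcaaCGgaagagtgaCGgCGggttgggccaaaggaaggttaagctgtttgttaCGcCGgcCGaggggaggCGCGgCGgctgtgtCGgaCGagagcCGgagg
Sirt5: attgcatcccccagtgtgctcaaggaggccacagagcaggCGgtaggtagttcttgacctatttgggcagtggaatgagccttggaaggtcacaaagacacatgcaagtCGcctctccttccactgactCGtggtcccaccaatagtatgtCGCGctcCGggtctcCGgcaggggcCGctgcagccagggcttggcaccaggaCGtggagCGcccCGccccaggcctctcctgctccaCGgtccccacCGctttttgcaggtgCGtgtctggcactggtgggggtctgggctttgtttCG

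The Sirt1 window is chr10:63338986-63339285 (minus strand) and holds 47 CG dinucleotides. The Kdm2b window, chr5:122900318-122900617 (minus strand), holds 47 as well, and the Kmt2c window, chr5:25498734-25499033 (minus strand), holds 56. The Kmt5c window, chr7:4739877-4740176 (plus strand), holds 22, and the Sirt5 window, chr13:43365285-43365584 (plus strand), holds 15. The last is the poorest in CG of the 5, with an observed to expected ratio of 0.52. Both strands were searched for the AP-1 motif TGANTCA, the PU.1 core GAGGAAGT, the interferon response element (ISRE), the C/EBP motif TTNCNNAA and the NF-kB motif. Of the 5 windows, the Sirt5 window matched NF-kB and the other 4 matched none of them. Among windows inside a peak, NF-kB matched 7 of these genes' 39 (17.9%), against 10.7% of all 6843, and AP-1 matched 2.56% against 4.09%. A match describes letters, not a bound site. The Kmt5c and Kmt2c promoter peaks also hold the start sites of Gm42369 and 4831440E17Rik, so those peaks cannot be assigned to 1 gene.

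The libraries held 927840 to 2772688 rounded counts in peaks, of which 0.566% to 0.626% lay in the peaks of these genes. All 8 microglia markers had a tested locus, and all 5 LPS check genes, Tnf and Nfkbia among them, rose in PL against PP and in PBL against PBP. None of the 3 lymphocyte markers had a tested locus. The 3 endothelial markers summed to 105 to 108 CPM (a library's counts rescaled so that all libraries have the same sum) in PP, 88.7 to 90.6 in PBP, 140 to 165 in PL, 146 to 165 in PBL, 125 to 131 in LL and 126 to 127 in LBL. Their sum was thus higher in every LPS group, and their part in the changes below was not tested. Of the 3, Flt1 was higher in every LPS library than in every PBS library. Cldn5 was not higher in LL (15.2 and 20.3 CPM, against 17.9 and 21.0 in PP). Nor was it in LBL (15.5 and 9.86 CPM, against 15.8 and 13.7 in PBP). Oligodendrocyte markers (3 of 4 tested) summed to 285 to 378 CPM over all libraries. Neuron markers (2 of 3 tested) summed to 62.0 to 62.7 CPM in PP and to 30.7 to 50.8 in the other groups. PP, PBP and PL were sorted on one instrument and PBL, LL and LBL on another. Isolation days differed between groups, except that PL 1_2 shared the day of PBP and PL 3_4 that of PP. In PL 3_4, 53.2% of counts lay in promoter peaks, against 55.5% to 60.1% in the other libraries. Fewer cells of a type and less signal per cell cannot be told apart in such bulk libraries.

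The first comparison asks how a first LPS injection changes these loci in microglia that were never depleted (PL against PP). A locus value is the sum of the counts of all its peaks within 50 kb. Of the 72 loci, 9 (12.5%) passed the test at an adjusted p under 0.05, against 10.6% of all 13734 loci, so the share is near the background. Hdac4, Tet2, Kmt5c and Hdac6 rose, 4 of 72 against 6.54% of all loci. Sirt1, Hdac5, Kmt2c, Kdm2a and Kdm2b fell, 5 of 72 against 4.07%. The median change of the 72 was -0.04 on the log2 scale, against 0.00 for all loci. The rule for a call is edgeR's quasi-likelihood test with Benjamini-Hochberg adjustment over all loci, and fold changes are log2 with their standard error.

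Among the zinc-dependent deacetylases, the class IIa enzyme Hdac4, which shuttles between nucleus and cytoplasm and represses MEF2 targets, rose most. Its locus stood at 266 and 300 CPM in PP and at 416 and 472 CPM in PL. The groups do not overlap, and the change was 0.65 ± 0.10 (adjusted p = 3.90e-06). Hdac5, another class IIa enzyme, moved the other way, from 76.1 and 68.3 CPM in PP to 51.0 and 38.1 in PL, a change of -0.70 ± 0.19 (adjusted p = 0.0104). Hdac6, which mainly deacetylates tubulin in the cytoplasm, stood at 51.5 and 39.9 CPM in PP and 69.3 and 66.7 in PL, a change of 0.58 ± 0.19 (adjusted p = 0.0338). The Hdac6 locus is 1 promoter peak, which did not pass when tested among single peaks. The deacetylases thus held 2 loci that rose and 1 that fell among 11, with a median of 0.10. Hdac1 and Hdac3, catalytic subunits of nuclear corepressor complexes, did not pass, with changes of -0.36 ± 0.17 (adjusted p = 0.189) and 0.10 ± 0.20 (adjusted p = 0.806). Hdac9, the class IIa enzyme with 10 tested peaks, did not pass either, at -0.12 ± 0.15 (adjusted p = 0.657).

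Sirt1, the nuclear NAD-dependent deacetylase that also acts on NF-kB, was the only one of the 7 Sirt loci to pass. It stood at 67.1 and 82.0 CPM in PP and at 52.9 and 34.5 in PL, a change of -0.78 ± 0.19 (adjusted p = 0.00391). PL 3_4 was the lower of the PL pools, and both PL pools were below both PP pools. Of the 3 Tet dioxygenases, Tet2 rose from 110 and 131 CPM in PP to 163 and 204 in PL, a change of 0.61 ± 0.13 (adjusted p = 0.000792). Tet2 is the Tet enzyme best known in myeloid cells. None of the 3 Dnmt loci passed, though all 3 had values below 0, from -0.49 to -0.21. For Dnmt3a, the enzyme that methylates new sites, the change was -0.27 ± 0.10 (adjusted p = 0.056), and for Dnmt1, which copies methylation after replication, it was -0.21 ± 0.18 (adjusted p = 0.503).

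Among 17 lysine methyltransferases, Kmt5c rose and Kmt2c fell, with a median of -0.11. Kmt5c, which trimethylates histone H4 in heterochromatin, stood at 110 and 116 CPM in PP and at 146 and 183 in PL, a change of 0.55 ± 0.13 (adjusted p = 0.00254). Kmt2c, which monomethylates histone H3 at enhancers, stood at 136 and 166 CPM in PP and at 131 and 95.3 in PL, a change of -0.43 ± 0.13 (adjusted p = 0.0280). Its PL pool 1_2 lies close to the lower PP pool, and PBP, at 122 and 124 CPM, was also below both PP pools. The Polycomb methyltransferases Ezh1 and Ezh2 did not pass, at 0.07 ± 0.31 (adjusted p = 0.918) and -0.22 ± 0.15 (adjusted p = 0.356), nor did Kmt2a, an MLL-type enzyme of active promoters, at -0.14 ± 0.21 (adjusted p = 0.737).

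Among 17 lysine demethylases, Kdm2a and Kdm2b fell and none rose. Both bind unmethylated CG-rich DNA through a zinc finger. Kdm2a stood at 205 and 178 CPM in PP and 165 and 129 in PL, a change of -0.38 ± 0.12 (adjusted p = 0.0308). Kdm2b stood at 251 and 246 CPM in PP and 223 and 170 in PL, a change of -0.34 ± 0.11 (adjusted p = 0.0377). In both the pool PL 3_4 was the lowest. PBP, the other PBS group, was also below both PP pools, at 175 and 167 CPM for Kdm2a and 208 and 216 for Kdm2b. Kdm6b, which removes the Polycomb mark and is a known LPS-induced gene of macrophages, did not pass at 3 hours, with 354 and 313 CPM in PP and 330 and 279 in PL (-0.13 ± 0.10). Its relative Kdm6a (0.15 ± 0.17, adjusted p = 0.624) and Kdm1a, which demethylates histone H3 at enhancers (-0.55 ± 0.24, adjusted p = 0.129), did not pass either. No acetyltransferase (7 loci) and no arginine methyltransferase (7 loci) passed.

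**Figure D1:**
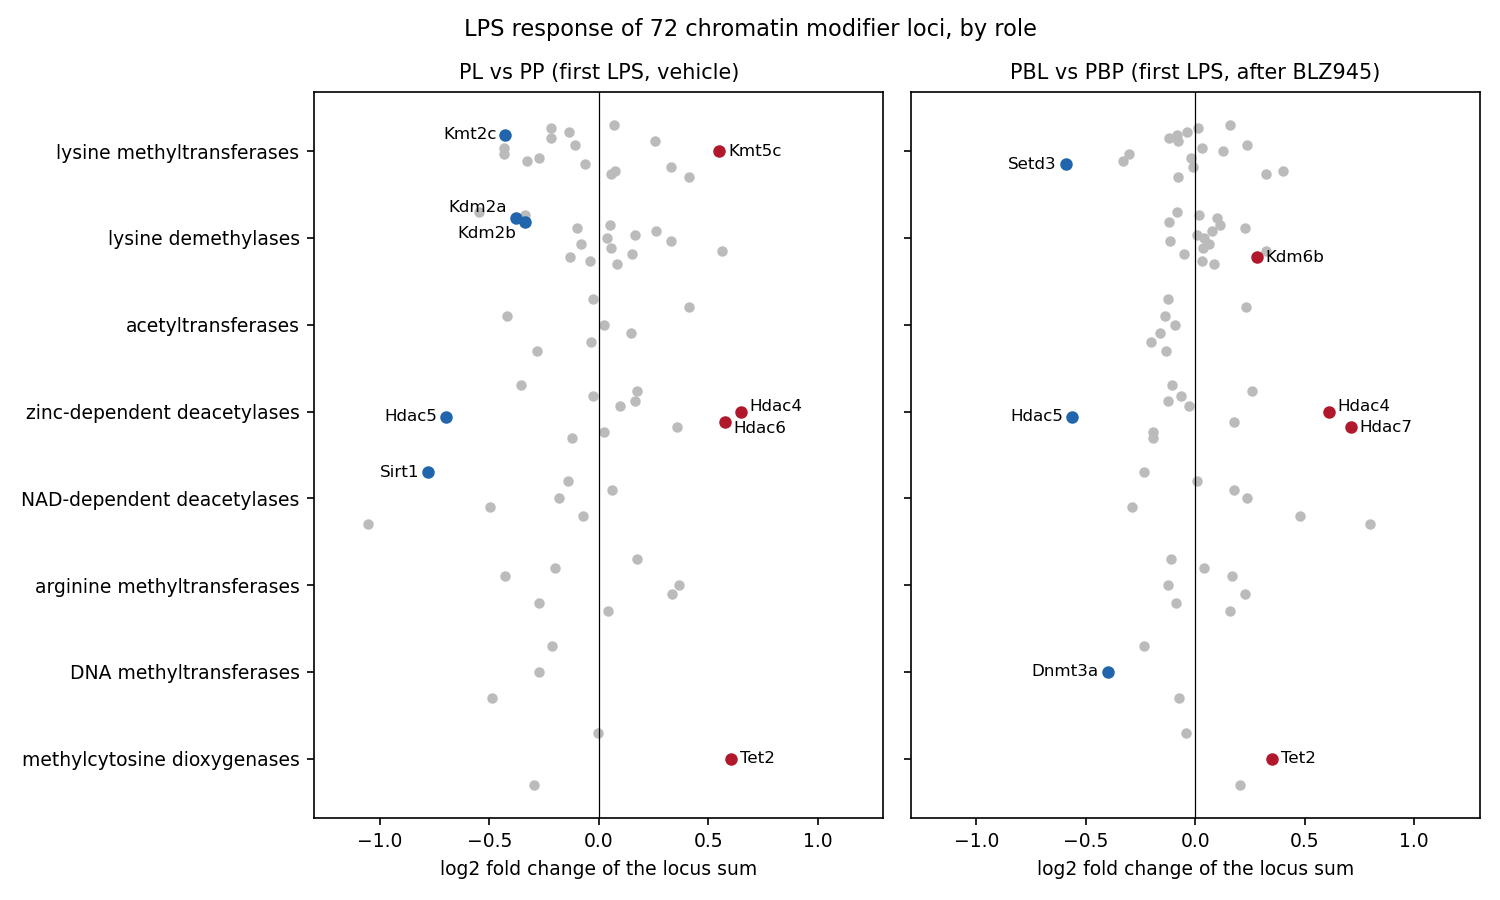
Log2 fold change of the locus sum for each of the 72 loci, by role of the enzyme (rows), in PL against PP (left) and PBL against PBP (right). Each point is 1 locus, red and named where it rose, blue and named where it fell, grey where it did not pass the test. Hdac4 and Tet2 are red and Hdac5 is blue in both panels, and the other named loci differ between the panels.

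Peak by peak, 15 of 192 (7.81%) passed in PL against PP, against 7.46% of all 37516 tested peaks. The direction differed by position. Of 81 promoter peaks (within 1 kb of a start site), 1 rose (Kmt5c) and 6 fell, against 2.25% and 4.64% of all promoter peaks. Of 111 peaks outside promoters, 7 rose and 1 fell, against 6.24% and 1.55% of all such peaks. All promoters in the table thus lean to lower values and other peaks to higher ones in this comparison, and these genes share that lean. The calls of the 6 promoter peaks that fell all depended on PL 3_4. That pool had 53.2% of its counts in promoter peaks, against 58.0% in PL 1_2, and its part in the lean was not tested.

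The promoter peaks that fell belong to Hdac5, Sirt1, Kmt2c, Kdm2a and, with 2 peaks, Kdm2b. The Hdac5 promoter peak (chr11:102218435-102219254) stood at 65.2 and 59.9 CPM in PP and 38.5 and 28.8 in PL (-0.90 ± 0.21, adjusted p = 0.00161). The Sirt1 promoter peak stood at 63.1 and 77.8 CPM in PP and 49.8 and 30.9 in PL (-0.82 ± 0.20, adjusted p = 0.00287). The Sirt1 peak is its whole locus, as are the promoter peaks of Kmt2c and Kmt5c, and the Hdac5 peak holds most of its locus's signal. Locus and promoter are thus 1 measurement, or nearly so, for these genes. The Kmt2c promoter peak (chr5:25498092-25500030) stood at 128 and 158 CPM in PP and 123 and 85.2 in PL (-0.47 ± 0.14, adjusted p = 0.0173). The Kdm2a promoter peak (chr19:4396390-4398033) stood at 116 and 102 CPM in PP and 93.7 and 65.0 in PL (-0.46 ± 0.15, adjusted p = 0.0398). In these promoter peaks PL 3_4 was again below PL 1_2.

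The Kdm2b promoter peaks belong to different start sites of the gene. The peak around the printed window (chr5:122900018-122900731) stood at 48.4 and 56.9 CPM in PP and 44.5 and 20.8 in PL (-0.71 ± 0.22, adjusted p = 0.0304). The other (chr5:122951446-122952358) stood at 33.7 and 44.9 CPM in PP and 29.6 and 17.0 in PL (-0.77 ± 0.26, adjusted p = 0.0441). The Kmt5c promoter peak was the one that rose, from 103 and 110 CPM in PP to 138 and 164 in PL (0.51 ± 0.13, adjusted p = 0.00602).

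Outside promoters, the peaks that rose were 3 in introns of Hdac4 and 1 each at Tet2, Hdac7, Kat2b and Kat6a. The Tet2 peak lies in intron 1 of 10 (chr3:133542160-133542390) and stood at 5.26 and 2.99 CPM in PP and 13.6 and 20.2 in PL. Its change of 2.04 ± 0.48 (adjusted p = 0.00195) was the largest of the 192. The promoter peak of Tet2 did not pass, at 0.32 ± 0.16. The Hdac7 peak, in intron 1 of 24 of this class IIa gene (chr15:97824991-97825414), stood at 2.104 and 7.98 CPM in PP and 13.0 and 17.0 in PL (1.55 ± 0.45, adjusted p = 0.0169). A peak in intron 1 of 2 of a Kat2b transcript (chr17:53587118-53587443), an acetyltransferase that works as a coactivator, stood at 4.21 and 4.99 CPM in PP and 13.0 and 18.1 in PL (1.75 ± 0.45, adjusted p = 0.00537). A peak listed for Kat6a, a MYST-family acetyltransferase, lies in the exon of a single-exon transcript (chr8:22873248-22873609). It stood at 6.31 and 4.99 CPM in PP and 13.0 and 18.6 in PL (1.49 ± 0.42, adjusted p = 0.0140). These are small peaks, and none of these PL pools overlapped a PP pool. The 1 peak outside promoters that fell lies in intron 3 of 3 of a Dnmt3a transcript (chr12:3855682-3856515), with 61.0 and 71.9 CPM in PP and 47.4 and 42.6 in PL (-0.57 ± 0.19, adjusted p = 0.0456).

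The counts for PL against PP depended on single pools. Each of these groups has 2 pools, and the PL pools differed more than other pairs. The part of either in this was not tested. The 9 loci became 3 without PP 1_2, 3 without PP 3_4, 20 without PL 1_2 and 1 (Hdac4) without PL 3_4, and the 15 peaks became 5, 5, 31 and 2. A day term could not separate the isolation day from LPS here. PL 1_2 is the only PL pool not isolated on the day of PP, so such a term is set by that pool alone and leaves PL 3_4 against PP, with the 20 loci and 31 peaks also counted without PL 1_2.

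The same question in repopulated microglia compares PBL with PBP. Hdac4, Hdac7, Tet2 and Kdm6b rose, 4 of 72 against 5.15% of all loci. Dnmt3a, Hdac5 and Setd3 fell, 3 of 72 against 2.32%. Together 7 loci (9.72%) passed, against 7.47% of all. The median change was 0.00, as over all loci, with a range of -0.59 to 0.80. PBL and PBP were sorted on different instruments and days, which cannot be told apart from LPS here. The endothelial markers stood at 146 to 165 CPM in PBL against 88.7 to 90.6 in PBP, and their part was not tested.

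Hdac4 again rose, from 294 and 292 CPM in PBP to 400, 471 and 464 in PBL, by 0.61 ± 0.09 (adjusted p = 1.77e-07). Tet2 stood at 118 and 125 CPM in PBP and 131, 168 and 158 in PBL (0.35 ± 0.11, adjusted p = 0.0311). Hdac5 stood at 74.8 and 62.9 CPM in PBP and 52.4, 48.3 and 42.6 in PBL (-0.56 ± 0.15, adjusted p = 0.0107). These 3 loci passed in both LPS comparisons and in the same direction. Hdac7 stood at 26.6 CPM in each PBP pool and at 38.4, 47.3 and 43.7 in PBL (0.71 ± 0.19, adjusted p = 0.00968), against 0.36 ± 0.25 in PL against PP. Dnmt3a stood at 354 and 373 CPM in PBP and at 271, 272 and 280 in PBL, a change of -0.40 ± 0.08 (adjusted p = 0.000366). Setd3, better known as an actin histidine methyltransferase, stood at 55.8 and 59.7 CPM in PBP and 36.9, 35.5 and 41.0 in PBL (-0.59 ± 0.17, adjusted p = 0.0140). In each of these loci the PBL pools lay on one side of both PBP pools.

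Kdm6b rose in this arm, from 281 and 272 CPM in PBP to 328, 335 and 346 in PBL, by 0.28 ± 0.09 (adjusted p = 0.0294). The call passed in 14 of 21 alternative fits, and not with DESeq2. Of the 8 Kdm6b peaks, 0 are promoter peaks, and some lie inside another gene, Dnah2. The PBL level lies within the PP range of 313 to 354 CPM, and the PBP pools were the lowest of the 13 apart from PL 3_4 at 279. Sirt1, which fell in PL against PP, did not pass here (-0.24 ± 0.16), nor did Kmt5c (0.13 ± 0.10). The fixed genes Ezh1 (0.16 ± 0.27), Ezh2 (0.01 ± 0.12), Kdm1a (-0.08 ± 0.19), Kdm6a (-0.05 ± 0.13), Kmt2a (-0.04 ± 0.16), Hdac1 (-0.10 ± 0.14), Hdac3 (-0.03 ± 0.16), Hdac9 (-0.20 ± 0.12) and Dnmt1 (-0.23 ± 0.14) did not pass.

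By peak, 20 of 192 (10.4%) passed in PBL against PBP, against 9.96% of all peaks. Promoters contributed 1 that rose and 1 that fell among 81, against 3% and 1.49% of all promoter peaks. Outside promoters 14 of 111 rose, against 8.91%, and 4 fell, against 4.23%. The promoter peak that fell was that of Hdac5, with 63.5 and 54.3 CPM in PBP and 43.5, 39.8 and 34.5 in PBL (-0.62 ± 0.17, adjusted p = 0.0058). The one that rose was a small Tet3 peak (chr6:83440428-83440726), with 6.10 and 1.51 CPM in PBP and 11.2, 13.0 and 11.7 in PBL (1.56 ± 0.39, adjusted p = 0.00286).

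Outside promoters, 5 Hdac4 peaks rose, as did the Tet2, Hdac7 and Kat6a peaks already named. The Tet2 intron peak stood at 7.32 and 4.53 CPM in PBP and 9.83, 24.1 and 14.7 in PBL (1.45 ± 0.35, adjusted p = 0.0014). The Hdac7 intron peak stood at 11.0 and 13.6 CPM in PBP and 18.3, 24.1 and 24.2 in PBL (0.90 ± 0.27, adjusted p = 0.0142). The Kat6a exon peak stood at 4.88 and 4.53 CPM in PBP and 9.83, 13.4 and 11.7 in PBL (1.32 ± 0.38, adjusted p = 0.0103). These peaks were called in both LPS comparisons.

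The smallest p outside Hdac4 was at a peak listed for Sirt4, a mitochondrial sirtuin, in the exon of a single-exon transcript (chr5:115491758-115492296). It stood at 18.3 and 9.05 CPM in PBP and at 34.4, 38.9 and 38.5 in PBL (1.41 ± 0.24, adjusted p = 2.96e-06). In PP it stood at 40.0 and 21.0 CPM and in PL at 29.6 and 29.8, so the PBP pools were the low ones. Kdm6b showed the same shape in intron 1 of 22 (chr11:69410159-69410989), with 47.6 and 70.9 CPM in PBP and 88.5, 91.6 and 98.3 in PBL (0.68 ± 0.14, adjusted p = 0.000146). PP held 86.3 and 87.8 CPM and PL 74.7 and 73.5. An intergenic peak nearest Kdm2a (chr19:4409023-4409645) stood at 10.4 and 9.05 CPM in PBP and 21.1, 21.3 and 18.0 in PBL (1.02 ± 0.29, adjusted p = 0.0087), with 21.0 and 20.0 in PP. At all 3 peaks PBL was near PP, and PBP was below both.

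Further rises were at small peaks. The one in intron 1 of 5 of a Kat6b transcript (chr14:21523320-21523566; Kat6b is the close relative of Kat6a) stood at 1.22 and 1.51 CPM in PBP and 4.21, 7.40 and 3.67 in PBL (1.86 ± 0.63, adjusted p = 0.0425). Another Kat6a peak, in intron 15 of 16 (chr8:22934520-22934775), stood at 3.05 and 6.79 CPM in PBP and 11.2, 15.3 and 7.33 in PBL (1.20 ± 0.42, adjusted p = 0.0469). An intergenic peak nearest Setd4, a SET-domain methyltransferase (chr16:93543747-93544027), stood at 2.44 and 7.54 CPM in PBP and 12.6, 9.25 and 11.0 in PBL (1.18 ± 0.39, adjusted p = 0.0328). Their adjusted p-values lie near the threshold.

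Among the 4 peaks that fell, 2 belong to Dnmt3a. The peak in intron 3 of 3 stood at 67.1 and 63.4 CPM in PBP and 44.95, 39.3 and 44.0 in PBL (-0.62 ± 0.16, adjusted p = 0.00307). The peak in intron 4 of 5 of another Dnmt3a transcript (chr12:3868496-3868998) stood at 37.8 and 51.3 CPM in PBP and 16.2, 18.0 and 31.2 in PBL (-0.93 ± 0.20, adjusted p = 0.000309). Kdm1b, a flavin-dependent demethylase related to Kdm1a, had a peak in intron 6 of 20 (chr13:47056836-47057184) at 9.76 and 18.1 CPM in PBP and 4.21, 4.16 and 5.87 in PBL (-1.45 ± 0.35, adjusted p = 0.00148). A Setd3 peak in intron 1 of 12 (chr12:108170510-108170868) stood at 26.9 and 25.6 CPM in PBP and 10.5, 17.6 and 15.4 in PBL (-0.81 ± 0.24, adjusted p = 0.0158). At all 4 the PBL pools lay below both PBP pools.

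The 7 loci became 2 without PBP 1_2, 3 without PBP 3_4, 3 without PBL 3_4 and 4 without PBL 4_5. The 20 peaks became 10 without PBP 1_2 and 9 without PBP 3_4. Hdac4 and Dnmt3a passed without any 1 library.

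**Figure D2:**
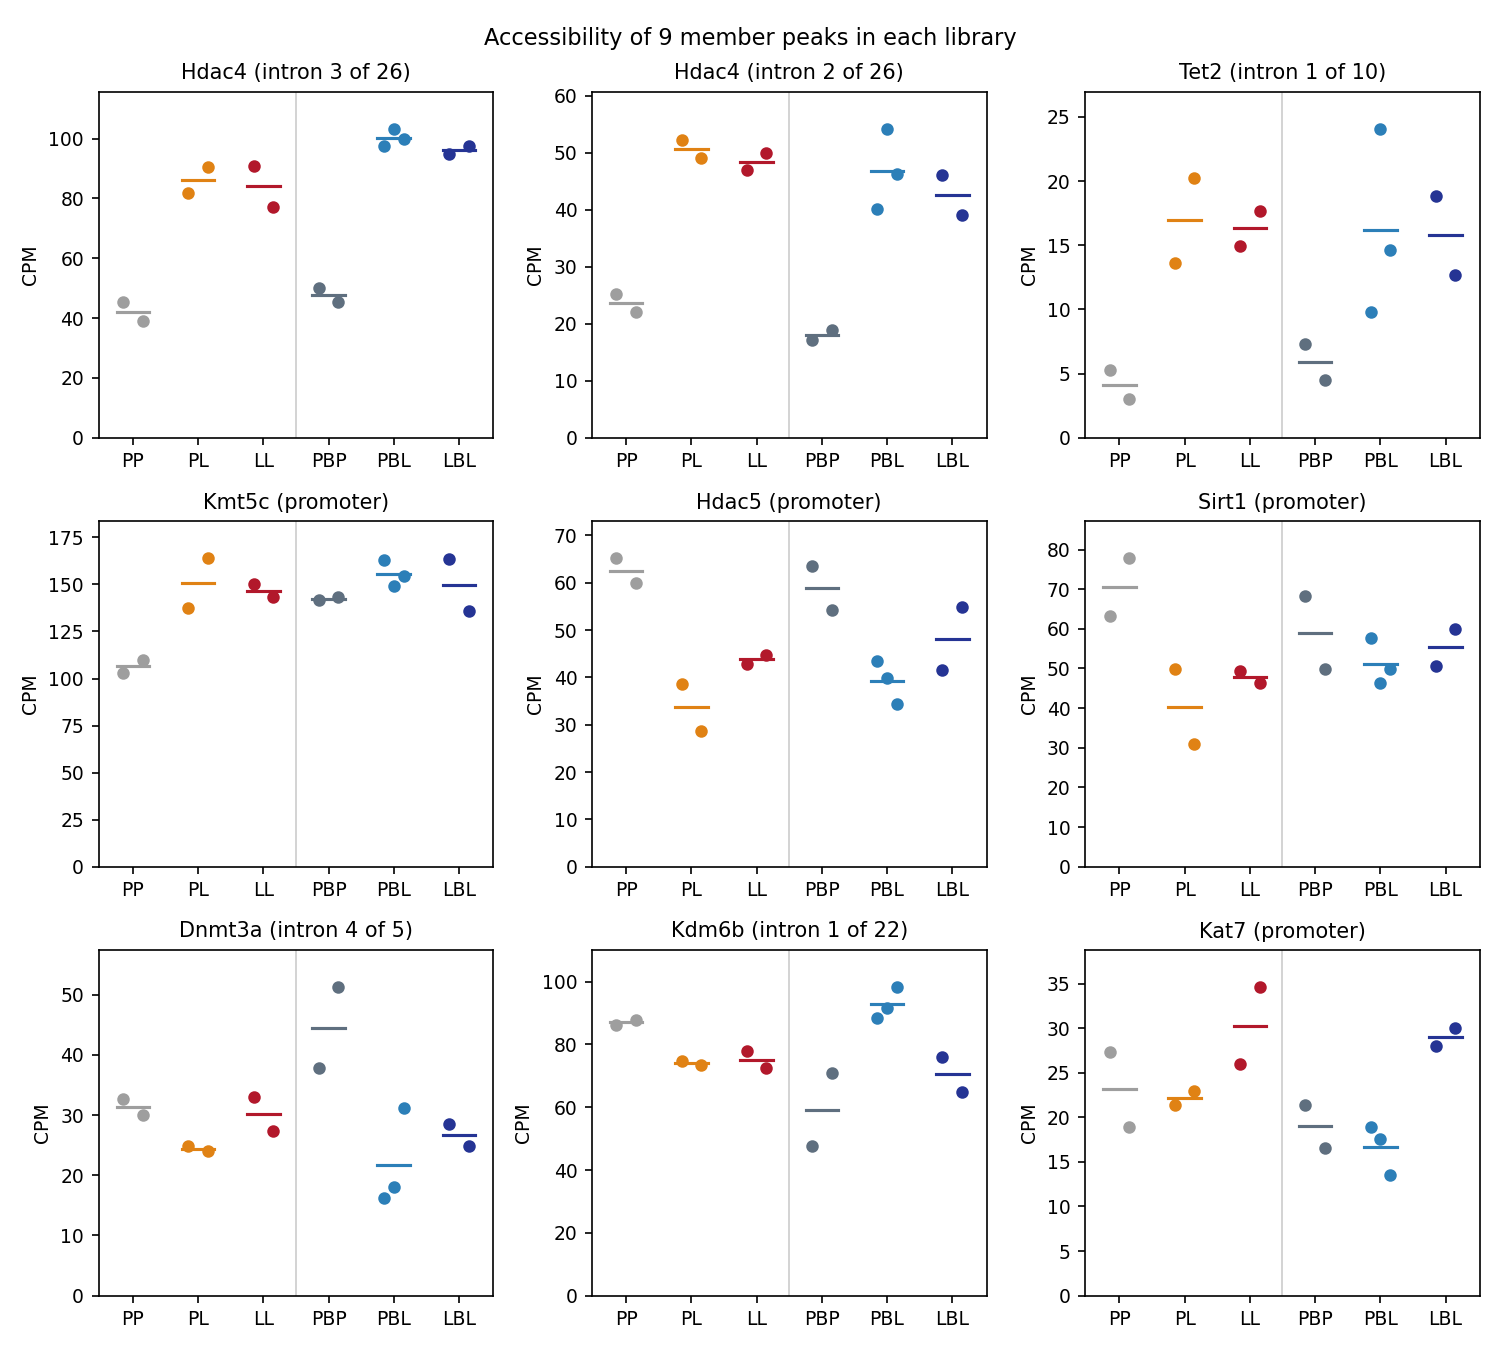
CPM of single peaks in each library, by group, with 1 panel per peak; points are libraries and short lines are group means. The Hdac4 intron peaks and the Tet2 intron peak lie higher in the 4 groups given LPS before collection than in PP and PBP, and the Hdac5 promoter peak has lower means there, with 1 LBL pool (54.8 CPM) just above the lower PBP pool (54.3 CPM).

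Hdac4 had the smallest p of the 72 loci in each of the 4 comparisons of LPS with PBS. The peaks that passed in all 4 lie in introns of Hdac4 and, with the intron peak named above, of Tet2. The Hdac4 locus has 8 tested peaks over the gene and its surroundings. The peak in intron 3 of 26 (chr1:92051800-92052767), 128 kb into the gene from the promoter peak, stood at 45.2 and 38.9 CPM in PP, 50.0 and 45.3 in PBP, 81.8 and 90.5 in PL, and 97.6, 103 and 99.7 in PBL. In LL it stood at 90.8 and 77.3 CPM and in LBL at 94.9 and 97.5. Every library given LPS before collection was above every PBS library. The changes were 1.04 ± 0.18 in PL against PP (adjusted p = 1.54e-05), 1.07 ± 0.14 in PBL against PBP (adjusted p = 1.64e-09), 0.99 ± 0.18 in LL against PP (adjusted p = 2.52e-05) and 1.01 ± 0.16 in LBL against PBP (adjusted p = 4.66e-07).

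A peak in intron 2 (chr1:92082654-92083337), 97.6 kb from the promoter peak, stood at 25.2 and 22.0 CPM in PP, 17.1 and 18.9 in PBP, 52.2 and 49.0 in PL and 40.0, 54.1 and 46.2 in PBL. It stood at 46.9 and 49.9 CPM in LL and 46.1 and 39.1 in LBL. Again no LPS library overlapped a PBS library, with changes of 1.10 ± 0.24 in PL against PP (adjusted p = 0.000795) and 1.40 ± 0.21 in PBL against PBP (adjusted p = 1.19e-07). A further peak in intron 2 (chr1:92137106-92137651), 43.2 kb from the promoter peak, stood at 11.6 and 16.0 CPM in PP, 9.15 and 6.03 in PBP, 28.5 and 26.6 in PL and 16.9, 24.5 and 20.2 in PBL. It stood at 31.4 and 22.5 CPM in LL and 23.4 in both LBL pools. Its changes were 0.99 ± 0.31 (adjusted p = 0.0306) in PL against PP and 1.42 ± 0.31 (adjusted p = 0.000307) in PBL against PBP, so all 3 intron peaks rose in both arms.

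The promoter peak of Hdac4 (chr1:92180055-92181080) did not pass the peak test in any of these comparisons. It stood at 107 and 141 CPM in PP, 150 and 143 in PBP, 153 and 158 in PL, and 152, 164 and 173 in PBL. Its change was 0.32 ± 0.13 in PL against PP (adjusted p = 0.0997) and 0.16 ± 0.10 in PBL against PBP (adjusted p = 0.381). In LL against PP it was 0.34 ± 0.12 (adjusted p = 0.0780) and in LBL against PBP 0.13 ± 0.11 (adjusted p = 0.616). Both PL pools lay above both PP pools, and the 3 PBL pools above both PBP pools. A further 3 Hdac4 peaks passed in the BLZ945-treated groups. The peak in exon 22 of 27 rose in PBL against PBP (1.06 ± 0.26, adjusted p = 0.00181). The peak 146 kb from the promoter, in intron 3, rose in LBL against PBP (0.81 ± 0.20, adjusted p = 0.00504). The peak 52.6 kb from it, in intron 2, rose in PBL against PBP (0.95 ± 0.33, adjusted p = 0.0443) and in LBL against PBP (1.19 ± 0.35, adjusted p = 0.0235). When only peaks within 10 kb or 1 kb of a start site were summed, the promoter peak was the whole Hdac4 locus. It then passed in PL against PP (0.38 ± 0.12, adjusted p = 0.0403 within 10 kb, and 0.42 ± 0.12, adjusted p = 0.0252 within 1 kb) and in LL against PP (adjusted p = 0.0364 and 0.0331). It did not pass in PBL against PBP (0.17 ± 0.10, adjusted p = 0.433 and 0.511) or in LBL against PBP (adjusted p = 0.532 and 0.583). Without BLZ945, the promoter thus passed in these sums and not in the peak test, and its change in the peak test was smaller than that of the 3 intron peaks in all 4 comparisons.

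**Figure D3:**
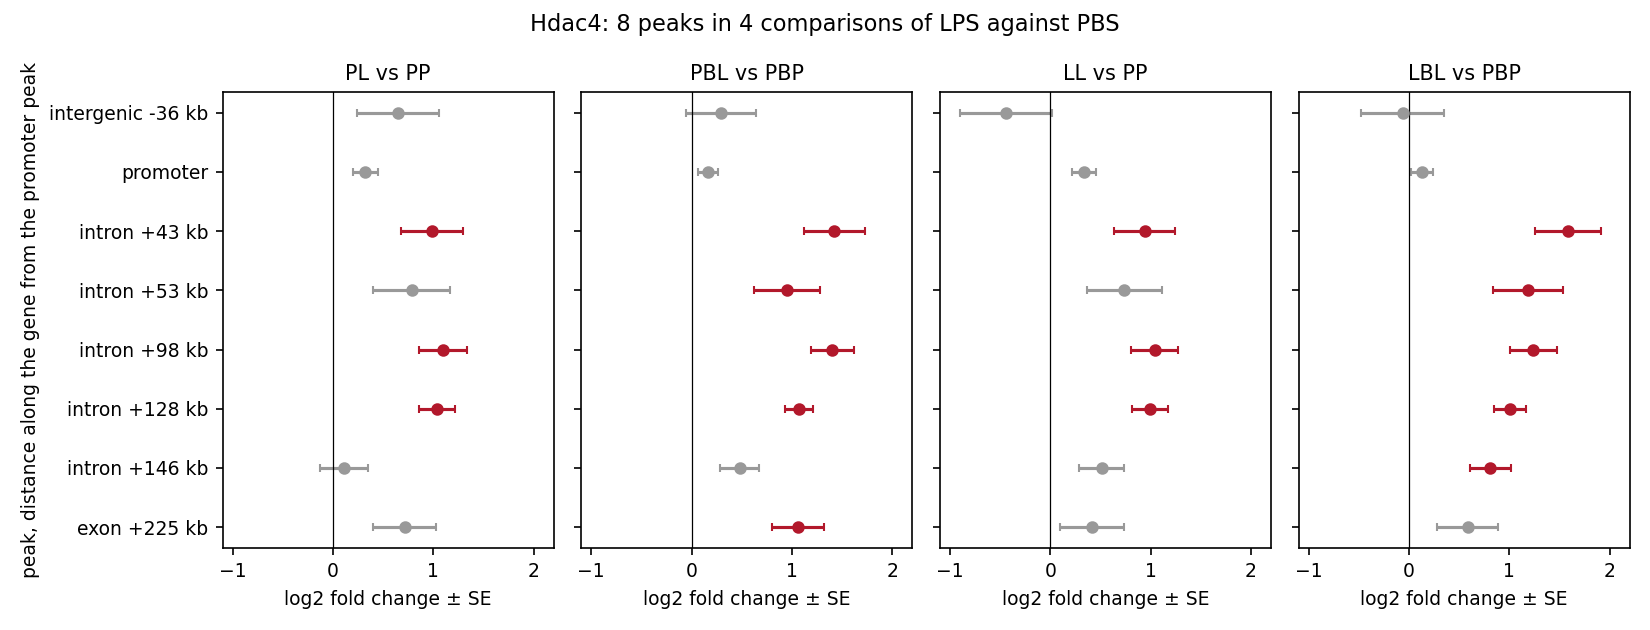
Log2 fold change (horizontal) of the 8 tested Hdac4 peaks, 1 per line and labelled by distance in kb from the promoter peak along the gene, for PL against PP, PBL against PBP, LL against PP and LBL against PBP. Bars are standard errors, red points passed the test and grey points did not. The 3 peaks at 43.2, 97.6 and 128 kb pass in every comparison, and the promoter peak in none.

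These LPS comparisons share no library, so their changes can be set side by side. Of the 192 peaks, 8 passed in both, 6 rising and 2 falling, 7 passed in PL against PP alone, 12 in PBL against PBP alone, and 165 in neither. The shares rising and falling in both were 3.12% and 1.04%, against 2.53% and 0.40% of all peaks. The 8 are the 3 Hdac4 intron peaks, the Tet2, Hdac7 and Kat6a peaks, and, falling, the Hdac5 promoter peak and the Dnmt3a intron 3 peak. Changes had the same sign in 124 of 192 peaks (64.6%), against 61.3% of all peaks. Pearson's r across the 192 peaks was 0.484, and 0.441 across all peaks, as a description only, since peaks of a library share its depth. For loci the same sign was seen in 44 of 72 (61.1%), against 60.2% of all loci.

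**Figure D4:**
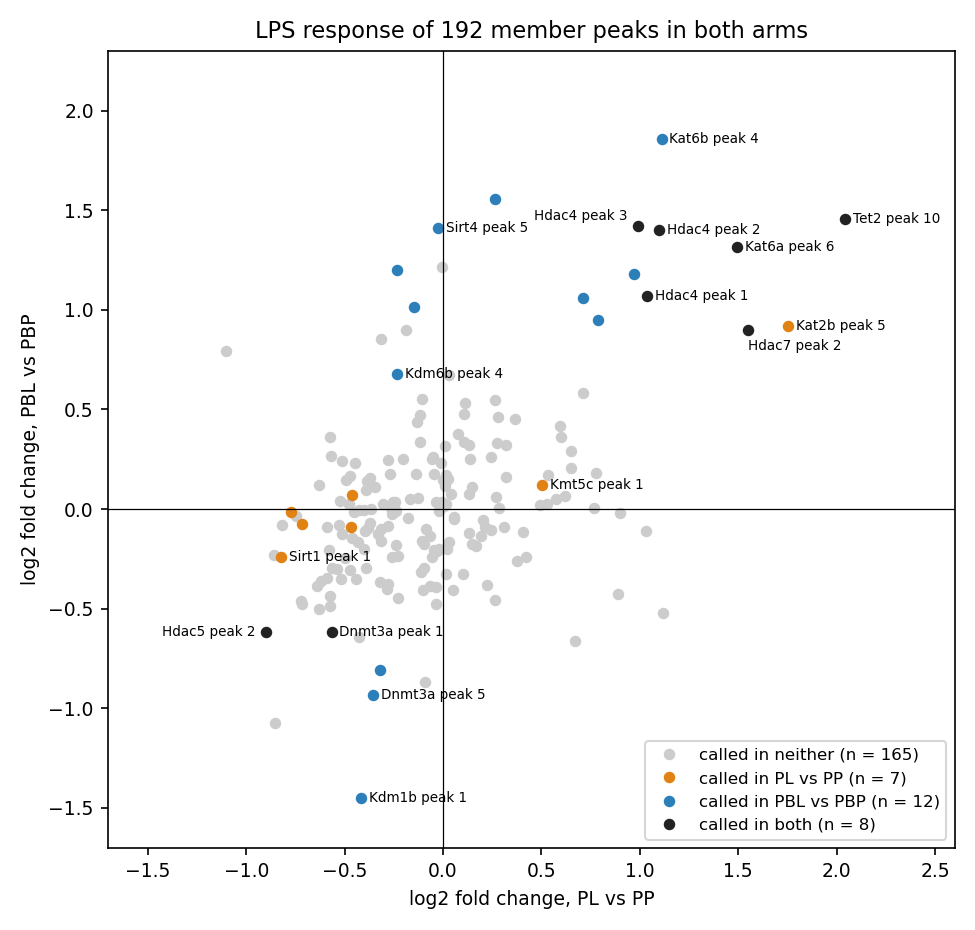
Log2 fold change of each of the 192 peaks in PL against PP (horizontal) and PBL against PBP (vertical), coloured by the comparison in which the peak passed the test. The 6 black points at the upper right are the Hdac4, Tet2, Hdac7 and Kat6a peaks that rose in both, and the 2 at the lower left are the Hdac5 and Dnmt3a peaks that fell in both.

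The difference between the arms was tested itself, as the LPS response in repopulated minus that in non-depleted microglia. PBL was sorted on another instrument than PP, PBP and PL, and on its own day. Neither can be told apart from this difference. No locus passed (0 of 72, against 0.124% of all), and 13 (18.1%) had an unadjusted p under 0.05, 8 positive and 5 negative, against 14.1% of all loci. DESeq2 and limma also called 0 loci, while a replicate block gave 1. The 0 rested on PL 1_2, without which 12 loci passed, 8 positive and 4 negative. The smallest p-values were at Sirt7, a nucleolar sirtuin (1.86 ± 0.57, adjusted p = 0.108), and Kdm6b (0.41 ± 0.13, adjusted p = 0.133). Sirt7 stood at 13.4 and 14.7 CPM in PP, 5.07 and 4.84 in PBP, 7.56 and 5.96 in PL and 5.90, 9.85 and 9.29 in PBL, so its signal was low throughout. In the other direction the smallest were at Prmt5, the main symmetric arginine methyltransferase (-0.49 ± 0.18, adjusted p = 0.173), and Kmt5c (-0.42 ± 0.17, adjusted p = 0.219).

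Among peaks, 1 of 192 passed, against 0.0746% of all, namely the Kdm6b peak in intron 1, with a difference of 0.91 ± 0.21 (adjusted p = 0.0469). Its change was -0.23 ± 0.16 (adjusted p = 0.423) in PL against PP and 0.68 ± 0.14 in PBL against PBP. This call passed in 2 of the 13 fits that each left out 1 library, and without PL 1_2 there were 8 such peaks.

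Repopulation without LPS compares PBP with PP. No locus of the 72 passed, against 0.116% of all loci, and no peak, against 0.16% of all peaks. At an unadjusted p under 0.05 there were 13 loci (18.1%, against 12.3% of all), 5 higher and 8 lower, and 22 peaks (11.5%, against 9.73%). DESeq2 called 0 loci and 0 peaks, while limma called 2 loci and 8 peaks, and 1 peak passed without PP 3_4. The smallest p-values below 0 were at Sirt7 (-1.49 ± 0.45, adjusted p = 0.128) and Kdm6b (-0.26 ± 0.10, adjusted p = 0.27). Those above 0 were at Kat6b (0.35 ± 0.11, adjusted p = 0.166) and Kmt5c (0.41 ± 0.14, adjusted p = 0.172). Kat6b stood at 181 and 173 CPM in PP and 225 and 226 in PBP, and Kmt5c at 110 and 116 CPM in PP and 147 and 153 in PBP. The PBP pools of both genes were above both PP pools, as they were for Hdac6 (59.6 and 67.7 CPM in PBP, 51.5 and 39.9 in PP). The isolation day differed between these groups and cannot be told apart from BLZ945.

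An earlier LPS injection was examined by comparing LL with PL, and, after BLZ945, LBL with PBL. In LL against PL no locus passed, against 0.0437% of all, and no peak, against 0.064%. At an unadjusted p under 0.05 there were 1 locus (1.39%, against 6.95% of all) and 10 peaks (5.21%, against 7.82%). DESeq2 and limma called 0 of both, and without PL 1_2 3 peaks passed. The locus was Prmt1, the main asymmetric arginine methyltransferase, at 23.9 and 20.2 CPM in PL and 14.1 and 12.3 in LL (-0.74 ± 0.27, adjusted p = 0.484). The next in the same direction was Tet2, at 163 and 204 CPM in PL and 164 and 160 in LL (-0.19 ± 0.11, adjusted p = 0.784). In the other direction were Ezh2, at 91.3 and 92.9 CPM in PL and 114 and 102 in LL (0.23 ± 0.12, adjusted p = 0.765), and Setd1b, a methyltransferase of active promoters (0.25 ± 0.14, adjusted p = 0.773). Hdac4 stood at 416 and 472 CPM in PL and 443 and 436 in LL, a change of -0.01 ± 0.09. The sorter and the day differed between LL and PL as well.

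In LBL against PBL, Kat7 rose and Hdac7 fell, 2 of 72 (2.78%) against 1.21% of all loci. Over all loci 0.706% rose and 0.502% fell. LBL and PBL were sorted on the same instrument but isolated on different days, which cannot be told apart from the earlier LPS. Kat7, the acetyltransferase HBO1, stood at 62.0, 58.1 and 53.8 CPM in PBL and at 77.0 and 82.1 in LBL (0.48 ± 0.13, adjusted p = 0.0405). Its LBL level is near that of LL, 78.5 and 79.3 CPM, while PP stood at 78.3 and 66.2. A Kat7 peak (chr11:95291945-95292324) was the 1 peak of 192 to pass, against 1.9% of all peaks. It stood at 19.0, 17.6 and 13.6 CPM in PBL and 27.9 and 30.0 in LBL (0.84 ± 0.22, adjusted p = 0.0199). It counts as a promoter peak because it lies 908 bp from an annotated start. That start is internal, since the peak lies past the peaks in introns 4 and 5 of 13 of a Kat7 transcript. Hdac7 stood at 38.4, 47.3 and 43.7 CPM in PBL and at 27.6 and 27.4 in LBL (-0.67 ± 0.18, adjusted p = 0.0473), which is the PBP level of 26.6. The next smallest p-values above 0 were at Setd3 (0.53 ± 0.16, adjusted p = 0.094) and Hdac9 (0.33 ± 0.12, adjusted p = 0.171), and the next below 0 was at Hdac6 (-0.30 ± 0.14, adjusted p = 0.352). Setd3, which had fallen in PBL, stood at 56.5 and 53.7 CPM in LBL. Neither call held in every setting. Hdac7 passed in 6 of 22 alternative fits and Kat7 in 12 of 22. DESeq2, limma and the fit with a replicate block gave 0 loci.

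The difference between these second-challenge effects, after BLZ945 minus without it, had 0 of 72 loci and 0 of 192 peaks called, against 0% of all loci and of all peaks. At an unadjusted p under 0.05 there were 4 loci (5.56%, against 5.79% of all) and 12 peaks (6.25%, against 6.92%). The smallest adjusted p among loci was 0.75, at the acetyltransferase Kat5, and among peaks 0.523. DESeq2 and limma called 0, and 1 peak passed without PL 1_2. PL was sorted on another instrument than PBL, LL and LBL, and these groups were isolated on different days. Neither can be told apart from this difference. Directly between BLZ945 and vehicle, PBL against PL had 0 loci and 0 peaks called, against 0.342% and 0.0826% of all. Unadjusted, 9 loci (12.5%, against 11.8% of all) and 15 peaks (7.81%, against 10.8%) were under 0.05, and the smallest adjusted p was 0.133, at Kdm2a. Without PL 1_2, 6 loci and 6 peaks passed in PBL against PL. The sorter and the day differed between PBL and PL as well. LBL against LL had 0 of both, against 0.0947% and 0.0506% of all, with 3 loci (4.17%, against 7.62%) and 9 peaks (4.69%, against 8.06%) under 0.05 unadjusted. DESeq2 and limma called 0 in both comparisons. The isolation day differed between LBL and LL too.

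Against the PBS groups, the loci after 2 LPS injections can be set beside those after 1, with PP and PBP shared as controls. LL and LBL were sorted on another instrument and on other days than PP and PBP, which cannot be told apart from LPS. In LL against PP, 4 loci (5.56%) passed, against 8.73% of all. There were 3 that rose, against 5.81% of all, and 1 that fell, against 2.92%. Hdac4 (0.63 ± 0.10, adjusted p = 3.99e-06), Kmt5c (0.50 ± 0.13, adjusted p = 0.00607) and Tet2 (0.42 ± 0.13, adjusted p = 0.0282) rose. Sirt5, a mitochondrial enzyme that removes succinyl and malonyl groups, fell from 43.6 and 29.4 CPM in PP to 21.7 and 17.6 in LL (-0.90 ± 0.26, adjusted p = 0.0178). Its PL pools, at 29.0 and 22.6 CPM, lie between. By peak, 9 (4.69%) passed, against 6.13% of all. They were the 3 Hdac4 intron peaks, the Tet2 intron peak (1.99 ± 0.47, adjusted p = 0.00249) and the promoters of Kmt5c (0.46 ± 0.13, adjusted p = 0.0140), rising, and those of Sirt1, Sirt5, Kdm2b and Kmt2c, falling. Promoters thus gave 1 that rose, against 1.71% of all promoter peaks, and 4 that fell, against 2.93%. Outside promoters 4 rose, against 5.54% of all such peaks, and 0 fell, against 1.46%.

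The Sirt1 promoter peak stood at 49.4 and 46.3 CPM in LL (-0.56 ± 0.19, adjusted p = 0.0463). The Sirt5 promoter peak (chr13:43365044-43365959) holds the printed window and is the whole Sirt5 locus. It stood at 41.0 and 27.9 CPM in PP and 20.0 and 16.1 in LL (-0.94 ± 0.26, adjusted p = 0.0145). The Kdm2b peak at chr5:122951446-122952358 stood at 18.0 and 20.1 CPM in LL (-1.04 ± 0.26, adjusted p = 0.00416), and the Kmt2c promoter peak at 107 and 109 (-0.41 ± 0.13, adjusted p = 0.041). At each of these promoters both LL pools lay below both PP pools. As loci, PBP, the other PBS group, was also below both PP pools for Kmt2c, Kdm2b and Sirt5. Kmt2c stood at 122 and 124 CPM in PBP and 116 and 119 in LL. Kdm2b stood at 208 and 216 CPM in PBP and 207 and 205 in LL, and Sirt5 at 25.3 and 29.0 in PBP. Sirt1 in PBP, at 71.0 and 53.2 CPM, overlapped PP. The 4 loci became 1 without PP 1_2, 2 without LL 3_4, 9 without PL 1_2 and 10 without PL 3_4, whose removal changes the shared estimate of spread.

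In LBL against PBP, 2 loci passed, against 4.29% of all, 1 rising against 3.71% and 1 falling against 0.575%. Hdac4 rose (0.63 ± 0.09, adjusted p = 9.42e-07) and Dnmt3a fell, from 354 and 373 CPM in PBP to 297 and 283 in LBL (-0.33 ± 0.09, adjusted p = 0.0206). Tet2 did not pass (0.37 ± 0.12, adjusted p = 0.0681), nor did Dnmt1 (-0.43 ± 0.16, adjusted p = 0.147). By peak, 12 (6.25%) passed, against 4.82% of all, none of them among the 81 promoter peaks (1.95% of all promoter peaks passed). Outside promoters 10 rose, against 5.54% of all, and 2 fell, against 0.953%. Those that fell both lie in Dnmt3a, the intron 4 peak at 28.6 and 24.9 CPM in LBL (-0.73 ± 0.22, adjusted p = 0.0319) and a peak in exon 5 of 6 (chr12:3872776-3873187), with 37.8 and 34.7 CPM in PBP and 26.0 and 17.3 in LBL (-0.78 ± 0.24, adjusted p = 0.0359).

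Besides 5 Hdac4 peaks, those that rose in LBL were the Tet2 intron peak (1.34 ± 0.39, adjusted p = 0.0214), the Kat6b intron peak (2.50 ± 0.62, adjusted p = 0.0045), the intergenic Kdm2a peak (1.05 ± 0.31, adjusted p = 0.0269) and the Sirt4 peak (0.90 ± 0.28, adjusted p = 0.0366). A further peak that rose is listed for Kdm6b but lies in exon 76 of 85 of Dnah2, an axonemal dynein (chr11:69429227-69429822). It stood at 19.5 and 9.05 CPM in PBP and 28.6 and 32.5 in LBL (1.05 ± 0.28, adjusted p = 0.00873). The Kat6b peak stood at 9.10 and 7.11 CPM in LBL, still a small peak. The 2 loci became 1 without PBP 1_2, without PBP 3_4 or without LBL 3_4, and 4 without either PL pool.

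**Figure D5:**
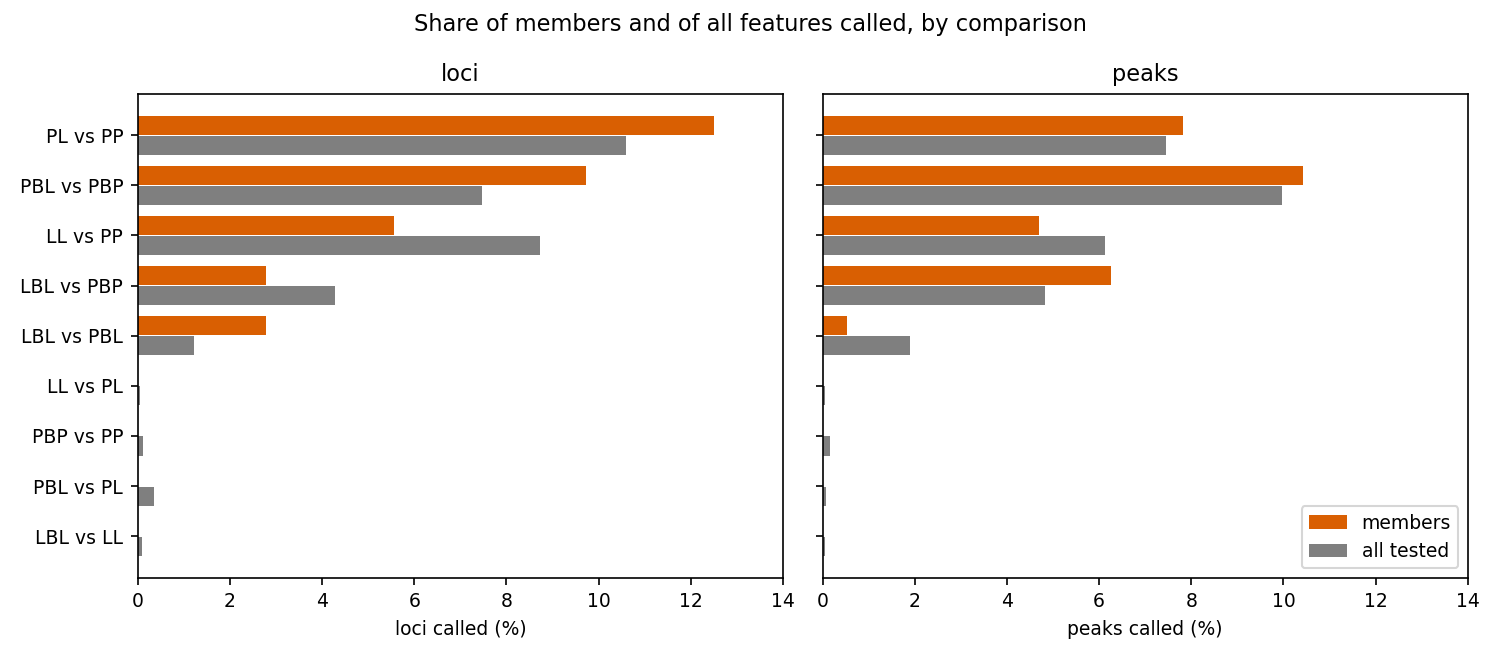
Percent of features that passed the test in each comparison, for these genes (orange, members) and for all features (grey), with loci on the left and peaks on the right. The longest bars for loci are those of PL against PP, at 12.5% against 10.6%, and for peaks those of PBL against PBP, at 10.4% against 9.96%.

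The roles can be compared by their medians. In PL against PP the median log2 change was -0.27 for the 3 Dnmt loci, -0.18 for the 7 Sirt loci and -0.11 for the 17 lysine methyltransferases. It was 0.10 for the 11 zinc-dependent deacetylases, 0.04 for both the demethylases and the arginine methyltransferases, -0.03 for the acetyltransferases and 0.00 for the Tet loci. In PBL against PBP it was -0.23 for the Dnmt loci, 0.18 for the Sirt loci, -0.02 for the lysine methyltransferases, -0.06 for the deacetylases and -0.13 for the acetyltransferases. It was 0.20 for the Tet loci and 0.04 for the demethylases and arginine methyltransferases. The Dnmt loci were below 0 in both arms, and the Sirt loci differed in sign; neither was tested as a group.

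Partner genes outside the naming rule, such as Polycomb and corepressor subunits, other methyltransferases and methyl-CpG readers, were counted from a list of 100, of which 90 were tested. In PL against PP 3 rose (3.33%, against 6.54% of all loci) and 7 fell (7.78%, against 4.07%), with a median of -0.10. Those that rose were Mbd2, a methyl-CpG reader (0.36), Jmjd1c, a demethylase relative (0.27), and Gadd45g, a stress-induced gene tied to DNA demethylation (0.37). Those that fell were Brd2, an acetyl-lysine reader (-0.77 ± 0.16, adjusted p = 0.00042), Ep300, a coactivator acetyltransferase (-0.54), Cbx8 (-0.58) and Jarid2 (-0.33) of Polycomb complexes, Rbbp4 (-0.51), a histone chaperone, Ncor1 (-0.47), the corepressor of Hdac3, and Jmjd6 (-0.47). In PBL against PBP 4 rose, Mbd2 (0.48), Gadd45g (0.42), Gadd45b (0.37) and Asxl1 (0.32), a Polycomb cofactor, and 0 fell, with a median of -0.02. These are 4.44% against 5.15% of all loci rising, and 0 against 2.32% falling. In LL against PP 2 rose (2.22%, against 5.81%) and 3 fell (3.33%, against 2.92%). In LBL against PBP 1 rose (Gadd45g, 0.69; 1.11%, against 3.71%). In PBL against PL, Pcgf5, a Polycomb subunit, was higher in PBL (0.69 ± 0.15, adjusted p = 0.015), 1 of 90 against 0.342% of all loci. The other comparisons had 0 of 90.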

How the data were processed

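The authors deposited 1 table of 13 libraries over a common peak set. Its values are expected or estimated counts in multiples of 0.5 that the authors did not normalize. Per the file headers, peak widths and distances to a start site are in bp. The submitters' processing notes list GRCm38 and mm10 as builds. They list MACS2 2.1.1 and ChIPseeker 1.38, and also Bowtie2 2.2.6, cutadapt 1.9.1, Picard 1.126, SAMtools 1.7, HOMER 4.9.1, bedtools 2.26 and deepTools 3.3.0, with no role or order. The counting tool and any shift of read ends for the transposase are not given in the sources used here. Another deposited table gives sorter and isolation day, per the file headers.

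Counts were rounded to whole numbers and fitted with edgeR 4.0.16 in R 4.3.3, with filterByExpr at a minimum count of 10 (which removed 1104 of 38620 peaks), TMM scaling, 6 group means over all 13 libraries and robust quasi-likelihood F tests, two-sided. The Benjamini-Hochberg adjustment of p-values ran over all 37516 peaks or all 13734 loci tested, in 11 comparisons, and a call is an adjusted p under 0.05. The standard error is the absolute log2 fold change divided by the square root of F. CPM of loci and of peaks are scaled to different totals, so the same peak has a slightly higher value as a locus. The steps were tested on simulated data.

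The genes and lists were chosen with earlier results of these data known. Named are every locus and peak of these genes called in any comparison (with values in each library for at most 3 peaks per gene), the 2 loci with the smallest p in each direction in 6 comparisons, and 13 fixed genes. Kat5 and the partner genes named beyond counts were chosen after their values were seen. DESeq2 1.42.0, limma 3.58.1, other scalings, no filter, narrower windows, a replicate block, the isolation day and leaving out each library were alternatives, and 2 of them (no scaling, and the LBL pair summed) were chosen after seeing the data. Same-numbered pools did not deviate together (correlation -0.0174 to 0.166 over 15 pairs of groups, 1 over 0.1), so the numbers were not used as pairs. Sequences of peaks outside promoters were not used here.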

Additional observations from a re-analysis of the deposited data

Results flagged for a closer look

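The Kdm6b peak in intron 1 differed between the arms by a test of the difference itself. Its LPS response was higher by 0.91 on the log2 scale in repopulated than in non-depleted microglia (edgeR's quasi-likelihood test, adjusted p = 0.0469), with the 3 PBL pools above both PBP pools and both PL pools below both PP pools. The call passed in 2 of 13 fits that each left out 1 library. Only PBL, of the groups in this difference, was sorted on the other instrument, which cannot be told apart from it.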

How the results depend on the processing

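Of the 24 calls of loci and 58 calls of peaks, 2 and 9 passed under every alternative run, 5 and 9 passed without each single library, and 0 reversed. The loci that passed everywhere were Hdac4 in PL against PP and in LL against PP. No scaling moved the median of all loci by more than -0.07.

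For loci, DESeq2 called 4 in PL against PP, 2 in PBL against PBP, 0 in LBL against PBL, 2 in LL against PP and 1 in LBL against PBP. Limma called 0 in LBL against PBL, 2 in PBP against PP and 7 in LL against PP. With a replicate block there were 4 in PBL against PBP, 0 in LBL against PBL, 8 in LL against PP and 1 for the difference in LPS response. With the isolation day as a term, PL against PP had 20, which only repeats the fit without PL 1_2, since that pool alone sets the term. With the LBL pair summed as 1 library, LBL against PBL had 0 and LBL against PBP 1. Without scaling, LL against PP had 8. Within 10 kb, LBL against PBL and LBL against PBP had 1 each, and within 1 kb PBL against PBP had 1, LBL against PBL 1 and LBL against PBP 0.

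For peaks, DESeq2 called 4 in PL against PP, 8 in PBL against PBP, 0 in LBL against PBL, 2 in LL against PP, 3 in LBL against PBP and 0 for the difference. Limma called 24 in PL against PP, 0 in LBL against PBL and 8 in PBP against PP. With the replicate block, LBL against PBL had 0 and the difference 2. With the day, PL against PP had 31, again as without PL 1_2. With the LBL pair summed, the difference had 0, and without scaling LBL against PBL had 2.

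Leaving out 1 library gave loci from 1 to 20 in PL against PP, 2 to 9 in PBL against PBP, 0 to 3 in LBL against PBL, 0 to 6 in PBL against PL, 1 to 10 in LL against PP, 1 to 4 in LBL against PBP and 0 to 12 for the difference. The 12 and the 6 were both without PL 1_2. Peaks ran from 2 to 31, 9 to 26, 0 to 3, 0 to 6, 3 to 14, 6 to 12 and 0 to 8 in the same order, from 0 to 3 in LL against PL, 0 to 1 in PBP against PP and 0 to 1 for the second-challenge difference. Unless stated, the cause was not tested.

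The LBL pair had a chi-square per degree of freedom of 0.978 (p = 0.999), the PL pair 1.84 and the other pairs 1.01 to 1.15. Since counts come in steps of 0.5, counting noise is not known, and the LBL pools were kept as 2.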

Other observations

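Beyond 50 kb of a start site, 24 further peaks carry the symbols of these genes, of which 23 were tested. A peak upstream of its nearest Tet2 start (chr3:133626385-133627158) stood at 15.8 and 10.0 CPM in PP, 10.4 and 12.8 in PBP, 26.7 and 38.9 in PL, and 37.9, 44.9 and 36.7 in PBL. It rose in PL against PP (1.36 ± 0.31, edgeR's quasi-likelihood test, adjusted p = 0.00113) and in PBL against PBP (1.79 ± 0.25, adjusted p = 6.41e-09). In mice given LPS at both injections it stood lower, at 22.0 and 22.5 CPM in LL and 20.8 and 22.3 in LBL, and it fell in LBL against PBL (-0.88 ± 0.20, adjusted p = 0.00548). Another distant Tet2 peak (chr3:133758431-133758912) rose in PBL against PBP (1.16 ± 0.31, adjusted p = 0.00457).

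Hdac9 has most of its distant peaks inside its own long introns. The peak at chr12:34722789-34723502 stood at 21.0 and 16.0 CPM in PP, 27.9 and 40.5 in PL and 29.9 and 35.0 in LL, and rose in PL against PP (0.90 ± 0.28, adjusted p = 0.0271) and LL against PP (0.82 ± 0.27, adjusted p = 0.0481). The peak at chr12:34788943-34789562 rose in PBL against PBP (0.79 ± 0.20, adjusted p = 0.00214) and LBL against PBP (0.99 ± 0.21, adjusted p = 0.000455). A small peak at chr12:34828273-34828517 rose in PL against PP (1.65 ± 0.55, adjusted p = 0.0449), and one at chr12:34779628-34779815 fell in PBL against PBP (-1.47 ± 0.40, adjusted p = 0.00689). These distant peaks were named after their values were seen.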
